A study of Mus musculus with 2 samples.

Results

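The 39 genes described here build the mitotic spindle, attach chromosomes to it at the kinetochore, time the start of anaphase or divide the cell. They were given as a gene set, by symbol, and chosen with earlier results of these data known. They were found on the array by matching the RefSeq accession of each gene probe to its gene symbol. All 39 of 39 were present among the 20654 named genes on the array, through 55 probes, and all 39 had a probe well above background on both arrays, as had 18236 named genes in all.

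Total RNA of male mice aged 8 months came from glomeruli, the capillary tufts that filter blood in the kidney. Both groups had received 1 intraperitoneal injection of 0.5 ml pristane, an oil that induces lupus-like autoimmunity, and were followed for 4 months, so both groups carried the disease treatment and no uninjected mice were analysed here. One group was wild type (WT) and the other carried a podocyte-specific deletion of Sirpa (Sirpa-/-), which encodes the inhibitory receptor SIRPα. Each group had 1 Agilent one-colour array, and the sources used here do not give the driver of the deletion, the strain or the number of animals behind each array. The design text names isolated podocytes as the material, whereas the labels and the extraction protocol name glomeruli collected with magnetic beads. With 1 array per group there was no replicate check and no test between the groups, and each difference below is one between 2 arrays.

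Mitosis begins when the kinase CDK1, bound to cyclin B, drives chromosome condensation and spindle assembly. Kinetochores built on each centromere capture spindle microtubules, and the spindle checkpoint holds the cell until all are attached. The anaphase-promoting complex (APC/C), a ubiquitin ligase, then marks securin and cyclin B for destruction, sister chromatids part, and the central spindle guides the contractile ring that divides the cell. Most of these genes are transcribed only late in the cell cycle, so in a tissue such as the glomerulus, where resting cells dominate, their transcripts are a common mark of dividing cells.

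Values are scaled signals, in units where 1000 is the 75th percentile of an array, and each difference is the log2 value on the array labelled Sirpa-/- less that on the WT array. Scaled signals of different probes are not compared with each other, since probes bind with different efficiency. The technical spread was taken from probes spotted 10 times on each array, as the SD of the spot-to-spot log2 difference. Its median was 0.26 for dim probes (mean scaled signal under 100), 0.07 for the middle class and 0.05 for bright probes (1000 and above). It covers spotting and scanning only, not animals, dissection or RNA preparation.

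The 1 Sirpa probe read 10042 for WT and 15618, 1.56-fold higher, for the array labelled Sirpa-/-, which goes against the label. Where that probe lies relative to the deleted segment is unknown, and a podocyte-specific deletion leaves Sirpa intact in other glomerular cells. All 12 podocyte, 10 endothelial and 8 mesangial markers were measured on both arrays. So were 18236 of the 20654 named genes and all 8 B cell markers, so this count does not check the tissue label. The podocyte list had a median difference of 0.09 and a summed signal of 455023 against 477266.

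Promoters of the members are shown first because many of these genes carry the same short motifs. The cell cycle genes homology region, written TTTGAA or TTTAAA, and the CCAAT box are the textbook elements of genes expressed late in the cycle. Both were searched on both strands from 250 bases before to 50 after the annotated start, in the RefSeq promoters of build GRCm38.p6. Printed are the 3 members with the lowest differences whose promoters could be shown, Cenpf, Bub1 and Plk1, and the member with the highest, Spc25. Motifs are in capitals, on either strand, and all else is in lower case.
Cenpf (chr1:189688037-189688336, minus strand): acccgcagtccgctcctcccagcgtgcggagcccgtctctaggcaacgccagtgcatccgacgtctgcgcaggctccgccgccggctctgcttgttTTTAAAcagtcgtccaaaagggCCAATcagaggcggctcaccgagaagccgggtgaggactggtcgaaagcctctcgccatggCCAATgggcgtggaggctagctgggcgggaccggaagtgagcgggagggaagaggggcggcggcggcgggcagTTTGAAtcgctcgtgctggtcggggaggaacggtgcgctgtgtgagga
Bub1 (chr2:127831810-127832109, minus strand): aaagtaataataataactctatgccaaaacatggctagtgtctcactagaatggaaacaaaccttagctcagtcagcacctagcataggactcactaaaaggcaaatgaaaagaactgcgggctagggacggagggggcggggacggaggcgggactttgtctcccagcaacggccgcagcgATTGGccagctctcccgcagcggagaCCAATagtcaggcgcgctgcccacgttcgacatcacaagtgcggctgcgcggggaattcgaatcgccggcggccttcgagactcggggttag
Plk1 (chr7:122159185-122159484, plus strand): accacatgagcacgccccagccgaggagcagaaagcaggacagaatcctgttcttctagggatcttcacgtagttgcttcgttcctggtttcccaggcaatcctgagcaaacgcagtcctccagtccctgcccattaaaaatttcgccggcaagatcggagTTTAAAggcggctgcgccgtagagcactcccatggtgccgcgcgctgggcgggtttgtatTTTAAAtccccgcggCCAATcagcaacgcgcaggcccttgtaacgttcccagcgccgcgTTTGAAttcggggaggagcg
Spc25 (chr2:69206164-69206463, minus strand): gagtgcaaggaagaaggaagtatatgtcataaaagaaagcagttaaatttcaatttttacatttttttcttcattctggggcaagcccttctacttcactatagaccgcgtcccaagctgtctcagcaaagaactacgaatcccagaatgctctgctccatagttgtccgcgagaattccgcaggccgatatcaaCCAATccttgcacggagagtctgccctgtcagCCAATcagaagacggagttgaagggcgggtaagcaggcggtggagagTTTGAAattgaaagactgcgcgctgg

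Cenpf carries TTTGAA at base 2 after the start and a pair of CCAAT boxes upstream. Plk1 has 1 TTTGAA, 2 TTTAAA and 1 CCAAT, and Spc25, which differed in the opposite direction from most members, has 1 TTTGAA and 2 CCAAT. Bub1 has 2 CCAAT boxes, and neither TTTGAA nor TTTAAA occurs in its window. The motifs were therefore present both in a member that was lower on the array labelled Sirpa-/- and in the member that was highest there.

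Of the 39 members, 33 had a promoter in the table. Aurkb, Ccna2, Incenp, Kif20a, Spc24 and Tpx2 were missing from it. TTTGAA occurred for 26 of the 33 genes (78.8%), against 20.2% of all 27025 genes with a promoter. CCAAT occurred for 26 genes (78.8%) against 41.1%, and TTTAAA for 9 genes (27.3%) against 14.9%. A window with CCAAT and either form of the homology region was found for 25 members (75.8%), against 12.2% of all genes. A match is a description of letters and not of a bound site.

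Position differed as well. Counting bases from the start, with negative values upstream, the 35 TTTGAA matches in the members' 35 promoters had a median position of 2, against -124 for the 6737 matches in all 32851 promoters. From 50 bases before the start onward, 25 of the 35 member promoters (71.4%) held TTTGAA, against 4.94% of all promoters. The motif did not separate the members by the size of their difference on the arrays: the 26 genes with TTTGAA had a median of -0.68 and the 7 without it -0.72.

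**Figure D1:**
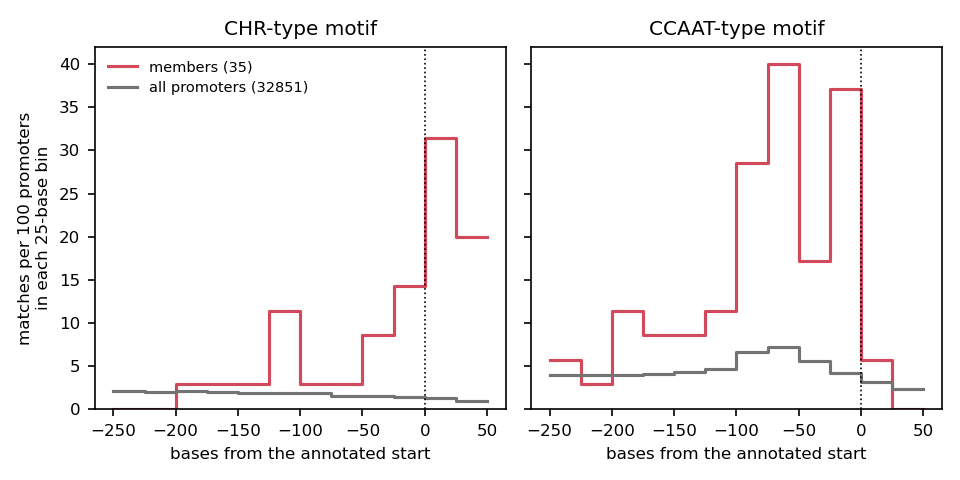
Matches of TTTGAA (left) and CCAAT (right), on either strand, per 100 promoters in bins of 25 bases, against distance from the annotated start in bases, for the 35 promoters of the mitotic genes and all 32851 promoters. In the members TTTGAA matches gather around and just after the start (median position 2), and CCAAT matches upstream of it (median position -66).

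As a group the members were lower on the array labelled Sirpa-/-. Because the set was chosen with earlier results of these data known, the shares below describe it and test nothing. The median difference was -0.72 (mean -0.68, SD 0.34 over genes), with quartiles at -0.83 and -0.59, while the median of all 18236 measured genes was 0.00 (SD 0.41). Below 0 were 37 of 39 members (94.9%), against 49.7% of all measured genes. At least 1.5-fold lower were 30 members (76.9%), against 5.27% of all genes, and 0 members were at least 1.5-fold higher, against 4.35%. At least 2-fold lower were 5 members (12.8%), Cenpf, Bub1, Aurkb, Plk1 and Kif20a, against 1.67% of all genes, and 0 were at least 2-fold higher, against 1.56%. The shift was thus broad and moderate, with most members between 1.5-fold and 2-fold lower. In a tissue RNA sample fewer dividing cells and less of these transcripts per cell cannot be told apart.

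The count at the 2-fold limit rested on values close to it. It was 3 with both arrays scaled on spike-in probes, where Plk1 (-0.99) and Kif20a (-0.96) fell short. With normexp background correction it was 0, where 0.433% of all genes passed. The normexp setting adds an offset of 50 to each signal, which by itself shrinks log2 differences, most for dim probes. At 1.5-fold the same settings gave 23 and 15 members, the second against 1.86% of all genes.

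**Figure D2:**
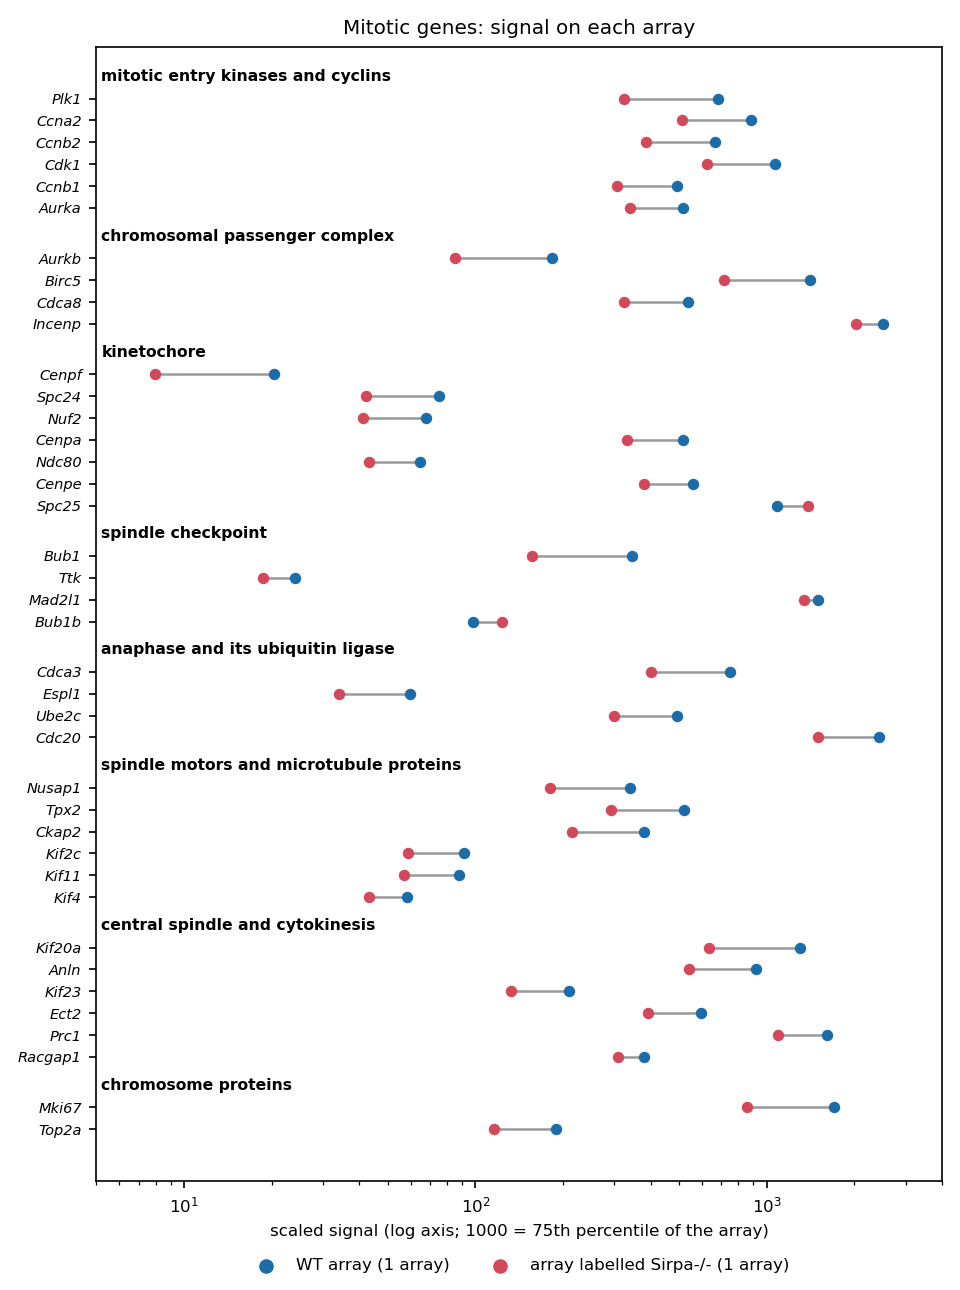
Scaled signal (log axis, 1000 is the 75th percentile of the array) of each of the 39 genes, by its probe with the highest signal, on the WT array (blue) and the array labelled Sirpa-/- (red), 1 array each, grouped by role. The red point lies left of the blue one for 37 genes; Spc25 and Bub1b are the exceptions.

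The kinases and cyclins that start mitosis were all 6 lower, with a median of -0.78 and a narrow range. Plk1, the polo-like kinase of spindle poles and kinetochores, read 680 for WT and 324 for Sirpa-/- (WT is given first throughout), 2.10-fold lower (log2 -1.07, technical SD 0.07). Cdk1, the kinase that drives entry, read 1069 and 623 (-0.78), and its further probe above background gave -0.89. Its cyclin partners stood at similar sizes: Ccna2 (cyclin A) went from 881 to 511 (-0.79) and Ccnb2 (cyclin B) from 664 to 385 (-0.79). Ccnb1, the other B-type cyclin, read 492 and 306 (-0.68), with -0.54 and -0.34 on its dimmer probes. Aurka, the Aurora kinase of the spindle poles, had the smallest difference of the 6, from 515 to 340 (-0.60).

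The chromosomal passenger complex corrects faulty attachments and later acts in cytokinesis. Its 4 members were all lower, with a median of -0.85, but unequally. The kinase Aurkb read 184 and 85.0, 2.17-fold lower (-1.12). Birc5 (survivin), which docks the complex on centromeres, read 1406 and 714 (-0.98), and its other probes gave -0.65 and -1.14. Cdca8 (borealin) read 538 and 324 (-0.73, with -0.48 on a second probe). Incenp, the scaffold that binds and activates the kinase, was the exception at 2504 and 2023, only 1.24-fold lower (-0.31), and its second probe gave nearly the same difference (-0.27).

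Among 7 kinetochore genes, 6 were lower and the median was -0.63. Cenpf, a large protein of the outer kinetochore, had the lowest value of all 39 members, 20.4 and 7.92, 2.58-fold lower (-1.37). That probe was dim, its signal on the array labelled Sirpa-/- was near the lowest scaled signal well above background there (5.60), its technical SD was 0.26, and with normexp its difference was -0.07. Cenpe, the kinetochore motor that brings chromosomes to the spindle equator, read 559 and 380 (-0.56), and Cenpa, the histone variant that marks centromeres, read 515 and 332 (-0.63).

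The Ndc80 complex, which binds the microtubule end, did not move as a unit across its 4 subunits. Ndc80 read 64.6 and 43.0 (-0.59), Nuf2 67.8 and 41.3 (-0.72), and Spc24 75 and 42.1 (-0.83), all dim probes with a technical SD of 0.26. Spc25, the partner of Spc24 in the inner half-complex, read 1084 and 1388, 1.28-fold higher (0.36, technical SD 0.05), the highest difference of the 39. Each of Ndc80, Spc24 and Spc25 was read by 1 measured probe. A second Nuf2 probe was well above background only on the array labelled Sirpa-/-, at 7.41, at least 1.28-fold above the lowest signal well above background on the WT array and so opposite to the first probe.

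The spindle checkpoint was the most mixed group, with a median of -0.27 over 4 genes. Bub1, the kinase that recruits checkpoint proteins to kinetochores, was spotted 10 times. Its spots read from 330 to 370 for WT (median 339) and from 138 to 169 for the other array (median 159). No spot of one array overlapped the other, and the spot differences averaged -1.13 (SD 0.10, from -1.29 to -1.0), 2.19-fold lower. Among all members this is the value with the firmest technical footing, though its 10 spots are still 1 RNA sample a group.

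Its relative Bub1b (BubR1), which inhibits the APC/C as part of the checkpoint complex, read 98.5 and 123, 1.25-fold higher (0.32, technical SD 0.07). Ttk, the kinase upstream of both, was dim at 24.0 and 18.7 (-0.36), and gave 0.14 with normexp. Mad2l1 (MAD2), which binds Cdc20, read 1503 and 1339, 1.12-fold lower (-0.17), with dimmer probes at 0.29 and -0.51, the widest spread among probes of one member. Bub1 apart, the checkpoint genes therefore showed no shared direction.

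The 4 genes of anaphase and its ubiquitin ligase were lower by similar amounts, with a median of -0.76. Cdc20, which activates the APC/C, read 2422 and 1501, 1.61-fold lower (-0.69). Ube2c, the ubiquitin-conjugating enzyme that works with it, read 491 and 299 (-0.72), with -0.79 on a second probe. Espl1 (separase), the protease that cuts cohesin, read 59.5 and 34.0 (-0.81). Cdca3, an adaptor linked to the breakdown of the inhibitory kinase Wee1, read 749 and 402 (-0.90).

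Spindle motors and microtubule proteins were lower in 6 of 6 cases, with a median of -0.73. Nusap1, which bundles microtubules near chromosomes, read 340 and 181 (-0.90), Tpx2, the activator of Aurora A, 521 and 292 (-0.84, with -0.53 on a second probe), and Ckap2, which promotes spindle microtubule growth, 379 and 215 (-0.82). The kinesins of this group were read by dim probes. Kif2c, which shortens microtubules at centromeres, read 91.4 and 58.6 (-0.64, with -0.83 on a second probe), Kif11, which pushes the poles apart, 87.8 and 57.0 (-0.62), and Kif4, a chromosome-bound kinesin, 58.1 and 43.3 (-0.42).

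Central spindle and cytokinesis genes were also lower in 6 of 6 cases, with a median of -0.63. Kif20a, the kinesin that carries the passenger complex to the midzone, read 1298 and 632, 2.05-fold lower (-1.04, technical SD 0.07). Anln (anillin), which links the contractile ring to the membrane, read 917 and 541 (-0.76). The centralspindlin pair differed in size: the kinesin Kif23 read 210 and 133 (-0.66), and its partner Racgap1 378 and 308 (-0.29), with -0.52 on a second probe. Ect2, the exchange factor that switches on RhoA at the equator, read 596 and 391 (-0.61), and Prc1, which bundles the midzone microtubules, 1617 and 1097 (-0.56).

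Of the chromosome proteins, Mki67, the standard antigen of cycling cells, read 1697 and 857 (-0.99), and its second probe gave -1.0. Top2a, the topoisomerase that untangles sister chromatids, read 189 and 116 (-0.71). Both were thus on the same side as the entry kinases.

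Further probes gave a check on single members. Of 55 probes, 53 were well above background on both arrays, and 50 of these 53 were below 0, with a median of -0.69. For 11 genes with more than 1 measured probe, the span between probes had a median of 0.22, close to the 0.20 over 4559 such genes. All probes were below 0 for 10 of the 11, against 24.7% of such genes in all, and the exception was Mad2l1. No member had measured probes more than 1 apart.

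**Figure D3:**
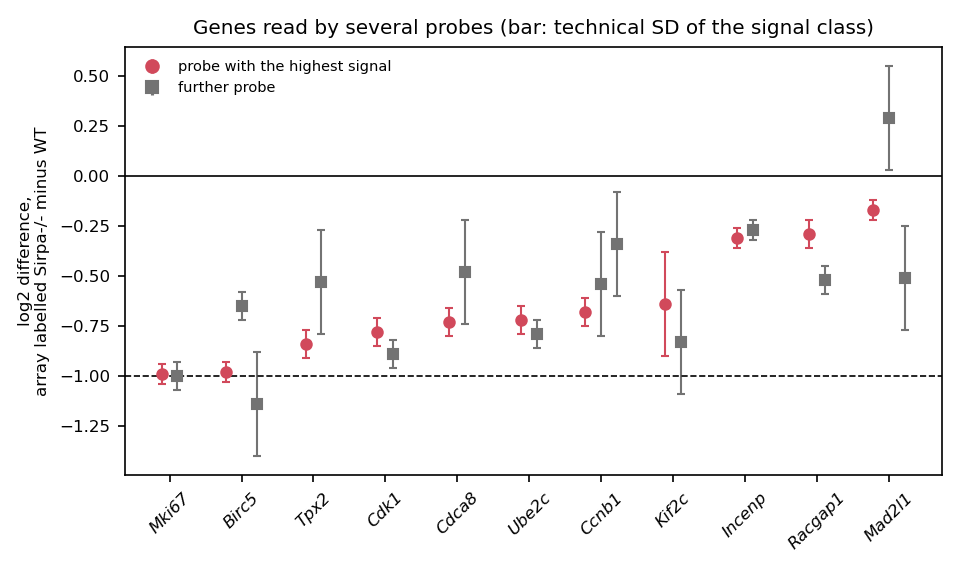
Log2 difference (array labelled Sirpa-/- minus WT) of every measured probe of the 11 genes read by several probes, with the median technical SD of the probe's signal class as the bar. Mki67 probes coincide at -0.99 and -1.0, and Mad2l1 probes range from -0.51 to 0.29.

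Against the technical spread, 35 of 39 members were lower by more than 2 technical SDs of their signal class, as were 21.2% of all measured genes. Spc25 and Bub1b were higher by more than that, and Kif4 and Ttk lay within it. The members were lower in every signal class. Among dim members 7 of 9 were at least 1.5-fold lower (8.81% of dim genes in all), among middle members 20 of 23 (5.76%), and among bright members 3 of 7 (1.89%), with medians of -0.64, -0.76 and -0.56. Across the 39 members the difference and the mean log2 signal had r = 0.13 and rho = 0.05, as a description.

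**Figure D4:**
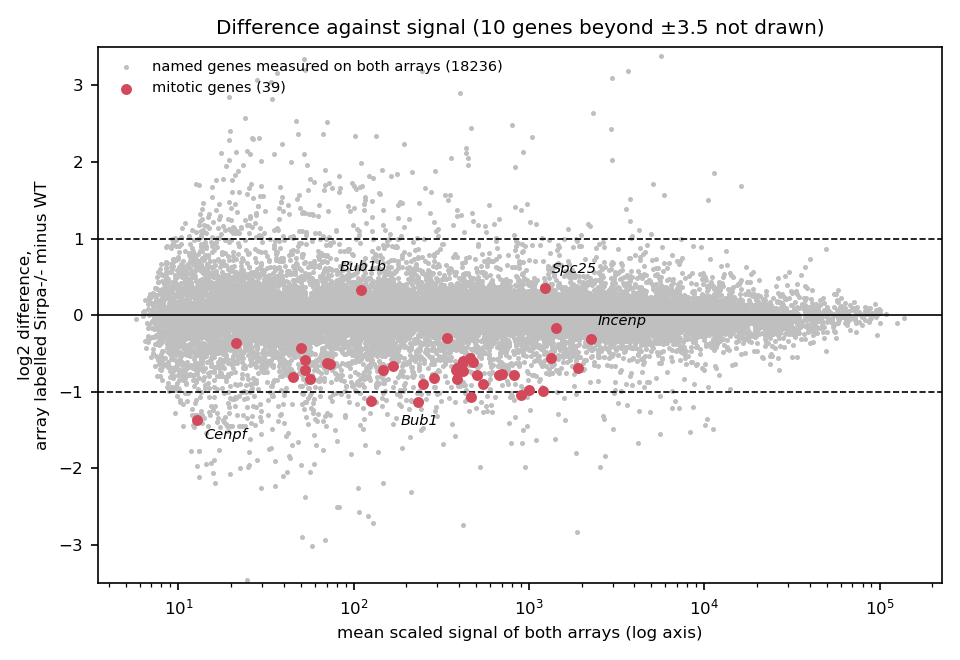
Log2 difference against mean scaled signal of both arrays (log axis) for 18236 named genes (grey) and the 39 mitotic genes (red), with dashed lines at 2-fold. The mitotic genes form a band with quartiles at -0.83 and -0.59 across the signal range, and Spc25 and Bub1b lie above 0.

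Other lists of the same processes were set beside the members, and these too were chosen with earlier results of these data known. A list of 84 further mitotic genes on the array had 81 measured, a median of -0.43 and 69 below 0 (85.2%, against 49.7% of all measured genes). Of these genes 28 were at least 1.5-fold lower (34.6% against 5.27%) and 6 at least 2-fold lower (7.41% against 1.67%). Nek2, a centrosome kinase, read 198 and 90.8 (-1.13), and Aspm, which focuses spindle poles, 510 and 241 (-1.08). Cdca5 (sororin), which protects cohesin, was spotted 10 times and read from 246 to 288 for WT and from 134 to 151 for Sirpa-/-, a mean difference of -0.89 (SD 0.08). These spots did not overlap.

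Of that list 2 genes were at least 2-fold higher (2.47%, against 1.56% of all measured genes). Pttg1 (securin), the inhibitor of separase that the APC/C destroys, read 1020 and 8727, 8.55-fold higher (3.10), and its second probe read 23.2 and 184 (2.99). Its target Espl1 and the ligase activator Cdc20, above, were lower. Hjurp, the chaperone that loads Cenpa at centromeres, read 38.3 and 104 (1.44), with 1.58 and 0.30 on its other probes, and its client Cenpa was lower. The Hjurp probes were all dim, a class with a median technical SD of 0.26, and the difference of 0.30 was close to that. Hjurp and Pttg1 thus differed in direction from their direct partners on these 2 arrays.

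Core subunits of the ligase and of cohesin stayed near 0 as lists. The 15 genes listed as APC/C core, among them the activator Fzr1 (-0.11), had a median of 0.02. Of these, 6 were below 0 (40.0%, against 49.7% of all measured genes). At least 1.5-fold lower or higher were 0, against 5.27% and 4.35% of all measured genes, so these counts lie near the background. The extremes were Anapc16 (0.49), Cdc23 (0.46) and Anapc5 (-0.25). The 10 cohesin core and loader genes had a median of 0.04, with Nipbl highest (0.40) and Smc1a lowest (-0.08). The 2 lists encode the ligase and the chromatid glue on which Cdc20, Ube2c and Espl1 act. Of APC/C genes 14 had a promoter, and 0 held the homology region together with CCAAT, where the share over all genes with a promoter was 12.2%, so this count lies near the background. The share was 38.9% for 72 further mitotic genes.

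The transcription regulators of the cycle had a median of -0.01 over 22 genes, with 3 at least 1.5-fold lower (13.6%, against 5.27% of all measured genes). These were E2f2 (193 and 109, -0.82), E2f8 (516 and 296, -0.80) and E2f7 (888 and 569, -0.64, with 0.08 on a second probe). Foxm1, the activator of late cell cycle genes, read 195 and 147 (-0.41). Mybl2, its partner in that activation, read 264 and 250 (-0.08) on one probe and 309 and 201 (-0.62) on the other, so its probes disagreed. The retinoblastoma gene Rb1, spotted 10 times, differed by 0.05 (SD 0.05).

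CDK inhibitors and other brakes had a median of 0.00 over 18 genes. Cdkn2a read 60.1 and 24.7 (-1.28), Cdkn2b -0.58 as a difference, Wee1 0.52 and Gadd45g 0.50. Interphase kinesins and light chains had a median of -0.06 over 26 genes, with Kif5c, a neuronal transport motor, lowest (59.4 and 24.2, -1.30). Tubulins had a median of -0.14 over 16 genes, from Tubb6 (-0.76) to Tubd1 (170 and 432, 1.34). The mitotic motors were therefore lower on the array labelled Sirpa-/- while the kinesin list as a whole and the tubulins were not shifted by a comparable amount, a contrast that was not tested.

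**Figure D5:**
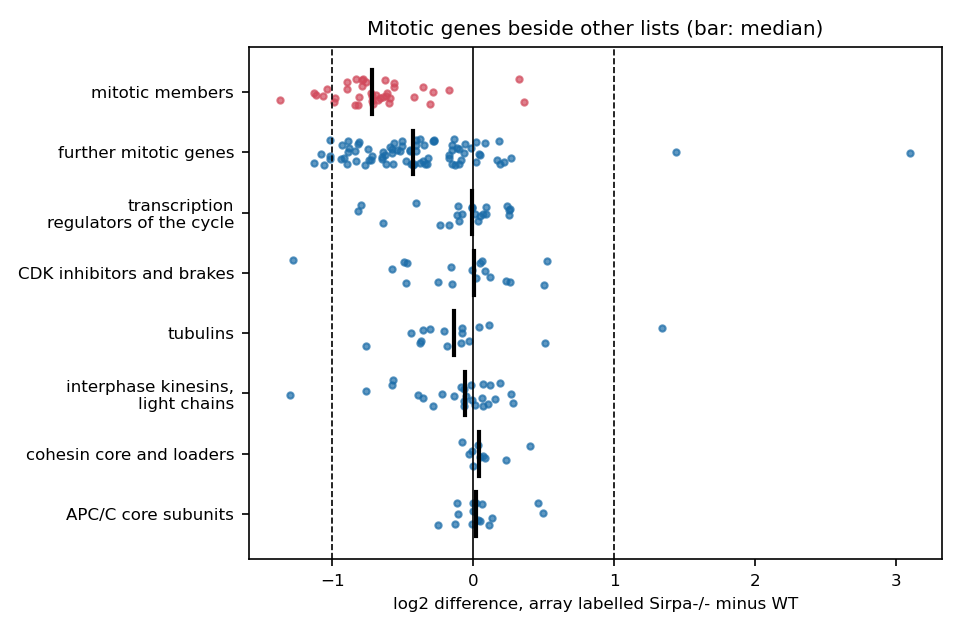
Log2 difference (array labelled Sirpa-/- minus WT) of every measured gene in the mitotic set and in 7 other lists; each point is a gene and the black bar the median. The members' median is -0.72, the further mitotic genes' -0.43, and the other lists' lie between -0.14 and 0.04; Pttg1 is the point at 3.10.

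Markers of other cell types moved alongside. All 8 B cell markers were measured and 4 of them were higher by 2-fold or more for Sirpa-/- (1.56% of all measured genes were), with a list median of 1.33. The summed signal was 924.2 and 3526, and most of that gap came from Cd22 (463 and 2311). The germinal centre and plasma cell list, whose cell types include rapidly dividing cells, had a median of 0.18 over 8 genes and summed signals of 25626 and 28612. T cell markers, 9 of 10 measured, had a median of 0.43 (2051 and 2470). Below 0 were 0 of the B cell, 1 of the T cell (11.1%) and 3 of the germinal centre and plasma cell markers (37.5%). The share over all measured genes was 49.7%. The summed signal of the germinal centre and plasma cell list came mostly from Xbp1 (20651 and 23636).

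Erythroid genes, 8 of 9 measured, had a median of 1.14 and summed signals of 17147 and 49459, led by haemoglobin genes such as Hbb-bt (1.69), while the precursor marker Klf1 was lower (-0.66). Granulocyte precursor genes summed to 781.5 and 797.3 over 5 markers. Macrophage markers, 9 of 10 measured, had a median of -0.10, with 7 below 0 (77.8%, against 49.7% of all measured genes). At least 1.5-fold lower were 2 (22.2% against 5.27%), Adgre1 (-0.91) and Cx3cr1 (-0.71). The second probes of these 2 genes gave -0.73 and -0.09. The summed signal of the macrophage markers was 11499 and 12187, higher for Sirpa-/- through Mrc1 (6223 and 7962). All 8 proximal tubule markers were below 0, against 49.7% of all measured genes (median -0.38, summed signal 8409 and 5850). Endothelial and mesangial lists had medians of -0.08 (243668 and 227550) and -0.05 (105263 and 89126). The part that any of these cell types has in the mitotic difference was not tested.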

How the data were processed

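RNA from 2 samples, WT and Sirpa-/- with 1 array each, was read as fluorescence. The deposited scanner files hold the processed spot intensity, background-subtracted and detrended without normalization between arrays, and quality flags of 0 or 1 among other values, per the file headers. Those headers name Agilent Feature Extraction 11.0.1.1, while the submitters' processing notes name 9.1. A value table deposited by the authors, in log2, served as an alternative; the sources used here do not give how it was made. Values were read with Python 3.11.15 and limma 3.58.1 (R 4.3.3).

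The log2 processed intensity was averaged over a probe's spots not marked as outliers, and each array's 75th percentile over gene probes (signal 1157.4 on WT, 1108.8 on the other) was subtracted. A probe was measured when, on each array, over 50% of its spots carried the deposited flag for well above background. Of 39423 probes, 27225 (69.1%) were named through RefSeq (GRCm38.p6). The array was designed on mm9, per the file headers, so only names were taken. A gene is represented by its probe with the highest mean signal. 

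Genes were counted at fixed folds, with no test. Members and lists were chosen with earlier results of these data known, and the limit of 2 technical SDs after values were seen. All members were named by role, with fold values for those past 2-fold, above 0 or among the 3 brightest (Incenp, Cdc20 and Mad2l1), and of other lists mainly the 4 largest differences, Pttg1, Foxm1 and Mybl2. Bub1b and Spc25 are the members above 0. The fold calculation was tested on simulated data. Alternatives covered scaling, background, filters, probe choice and the authors' values.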

Additional observations from a re-analysis of the deposited data

How the results depend on the processing

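Across 10 alternatives the median of the members stayed between -0.73 and -0.55. It was -0.64 with spike-in scaling (7 spike-in probes) and -0.55 with normexp, and the median over all member probes was -0.61 and -0.51. Those settings moved the median of all genes to 0.08 and 0.07. The 2-fold count, 5 as reported, became 3, 0 with normexp and 30 at 1.5-fold. Members below 0 numbered 37 in each alternative that measured all 39, except normexp with 36. A stricter filter on dim probes left 30 members, 28 of them below 0. Leaving out each role in turn gave medians from -0.72 to -0.71. Of 381 pairs of member and alternative, 300 moved by less than the technical spread of 0.07. Many of these pairs could not move, so the count overstates stability. The filter settings kept the same probe and scaling, and probe choice cannot change a gene with 1 measured probe. No paired analysis was possible because each group had 1 array. Dim probes, Cenpf above all, limit the precision, as does having 1 array per group.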

Other observations

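Condensin, the ring complex that compacts mitotic chromosomes, was examined after its values were seen, within the list of further mitotic genes. Ncaph read 1056 for WT and 717 for the array labelled Sirpa-/- (log2 difference -0.56), Ncapg -0.43 and Ncapd2 -0.38, the 3 subunits specific to condensin I. The Ncapg probe was dim (49.5 and 36.8, class technical SD 0.26), so its difference lay within 2 technical SDs. The shared subunits Smc2 (-0.32) and Smc4 (5367 and 4854, -0.14) differed less. Of the condensin II subunits, Ncapg2 gave -0.33, Ncaph2 -0.13 and Ncapd3 0.02. The difference between the complexes was not tested.

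Centromere and kinetochore genes of the same list also varied. Kntc1, which brings dynein to kinetochores, read 257 and 127 (-1.02), Ska1 147 and 77.7 (-0.92) and Cenph 68.5 and 38.4 (-0.83). Cenpo and Cenpq, spotted 10 times each, gave mean differences of 0.08 (SD 0.06) and -0.09 (SD 0.05), and the checkpoint gene Trip13 -0.28 (SD 0.08). Bub3, the partner of Bub1 and Bub1b, read 5315 and 5491 (0.05).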
